A study of Homo sapiens with 6 samples.

Results

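Epithelial cells can lose their junctions and take on a mesenchymal character, a process called epithelial-mesenchymal transition (EMT), and TGFβ is among its best known inducers. The genes described here are 10 that are often read to follow it, picked by name from the deposited gene count table, which holds 57773 genes: the transcription factors SNAI1, SNAI2, SNAI3, TWIST1, ZEB1 and ZEB2, and the structural genes CDH1, CDH2, VIM and EPCAM. No threshold on a measured value entered the choice, but it was made with earlier results of these data known. The SNAI and ZEB proteins are zinc finger repressors that bind E-box sequences (CAGGTG, or CACCTG on the other strand) in promoters such as that of CDH1, and TWIST1 is a basic helix-loop-helix factor. CDH1 encodes E-cadherin, which holds epithelial cells together and ties them to the actin cytoskeleton through catenins. CDH2 encodes N-cadherin, which many cells gain in EMT but which hepatocytes express alongside E-cadherin. VIM encodes vimentin, the intermediate filament of mesenchymal cells, and EPCAM encodes an adhesion molecule of epithelial and progenitor cells.

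RNA was sequenced from 6 cultures of HepG2, a single established line from a human liver tumor, kept at low passage in MEM with fetal bovine serum. In the TGFβ group, 3 cultures received recombinant human TGFB1 ligand at 5 ng/mL, and in the vehicle group 3 cultures received vehicle, each for 3 h. The study's methods describe the treatment as done in medium without serum in both groups. Poly(A) libraries were made with a TruSeq kit, and reads were aligned to hg19 by the authors and counted per gene. The values therefore describe an early time point in 1 cell line, and in bulk RNA a change in the share of cells that express a gene cannot be told apart from a change in every cell.

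The 6 libraries held from 60815385 to 100099136 reads on genes, so that 3 reads in a library correspond to between 0.0310 and 0.0487 CPM (counts relative to library size, scaled with the TMM method). The quasi-likelihood test of edgeR was applied to genes with enough reads, and P values were adjusted by the Benjamini-Hochberg method (FDR) over all 22747 tested genes, and a gene was called at an FDR under 0.05. Fitted changes of TGFβ over vehicle are given as log2FC (log2 fold change) with their standard error (SE). Of all tested genes, 4.12% were called, 3.11% higher and 1.01% lower with TGFβ. All 3 widely known TGFβ targets used to check the labels (SKIL, SMAD7 and PMEPA1) were called higher, with log2FC values between 1.72 and 4.30. Each of the 12 hepatocyte markers examined, among them ALB, AFP and HNF4A, was read in every culture and 0 of the 12 were called in either direction by edgeR (1 lower and 0 higher at an unadjusted P under 0.05), while with the block 3 were called lower and 0 higher. Their summed level was between 40712 and 45174 CPM with vehicle and between 38931 and 44435 CPM with TGFβ. Cultures carry the numbers 1 to 3 in both groups, and same-numbered cultures deviated from their group means together, so changes are also given per pair and, where it alters a call, from a fit with the culture number as a replicate block. With the block, 11.8% of all tested genes were called, 8.08% higher and 3.75% lower.

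The epithelial cadherin rose with TGFβ, and no tested gene of the set was called lower. Of the 10 genes, 6 had enough reads to be tested (CDH1, CDH2, EPCAM, ZEB1, SNAI1 and SNAI3) and 4 did not (SNAI2, ZEB2, TWIST1 and VIM). CDH1 was called higher, 1.74-fold, so that 1 of 6 tested genes was called (4.12% of all genes) and 1 of 6 higher (3.11% of all genes), and 0 of 6 were called lower by edgeR, by DESeq2, by limma-voom or at an unadjusted P under 0.05. Over all genes edgeR called 1.01% lower, and at an unadjusted P under 0.05 it had 8.69% higher and 4.97% lower. CDH2 had a fitted change of 1.30-fold in the same direction and missed the threshold without the block and passed it with the block. VIM was read at 0 in every vehicle culture, and the SNAI, ZEB and TWIST factors were not called in either direction.

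Levels can be compared between genes only per length, for which the deposited RPKM (reads relative to gene length and library size) was used. In the vehicle cultures EPCAM was highest at 51.8 ± 3.11 RPKM (SD, n = 3), followed by CDH2 at 28.3 ± 3.01 RPKM and CDH1 at 7.02 ± 1.24 RPKM. The factors lay lower, with ZEB1 at 1.77 ± 0.187 RPKM, SNAI1 at 0.691 ± 0.286 RPKM and SNAI3 at 0.271 ± 0.0379 RPKM. SNAI2 had 0.0242 ± 0.0199 RPKM and ZEB2 had 0.00253 ± 0.00295 RPKM, while TWIST1 and VIM had 0. In this order no gene from EPCAM to ZEB2 overlapped its neighbor over the 3 vehicle cultures, and TWIST1 and VIM could not be ordered. The same order from EPCAM down to SNAI2 held in the TGFβ cultures without overlap between neighbors. Of all genes in the table, 98.7% had a lower mean vehicle RPKM than EPCAM, 97.3% than CDH2, 89.3% than CDH1 and 73.0% than SNAI1. These shares are over all 57773 genes of the table, of which 39499 had any read and 22747 were tested. On this scale even SNAI2, with 14 reads over the vehicle cultures, stood above 49.3%. Among the 10 genes, HepG2 cells thus held mRNA of EPCAM and of both classical cadherins at the highest levels. ZEB1 mRNA was lower, and there was almost no VIM mRNA.

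**Figure D1:**
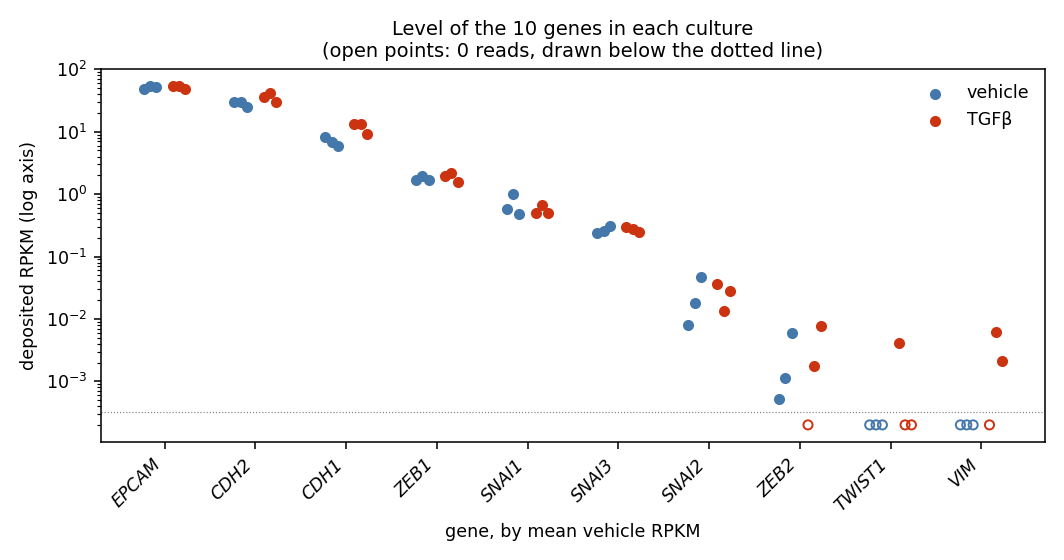
Deposited RPKM (log axis) of each of the 10 genes in the 3 vehicle (blue) and 3 TGFβ (red) cultures, ordered by the mean vehicle RPKM; open points are cultures with 0 reads. EPCAM, CDH2 and CDH1 lie highest, at means of 51.8, 28.3 and 7.02 RPKM with vehicle, and TWIST1 and VIM had 0 reads in all vehicle cultures.

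CDH1 (ENSG00000039068) lies at chr16:68771128-68869451 on the plus strand in hg19. It was covered by 5532, 4139 and 2713 reads in vehicle cultures 1, 2 and 3 and by 9786, 8025 and 5241 in TGFβ cultures 1, 2 and 3, or 62.7, 49.9 and 44.1 CPM against 101, 99.7 and 71.9 CPM. The lowest TGFβ culture was above the highest vehicle culture, and in both groups culture 3 was the lowest. CDH1 rose from 52.2 ± 9.51 CPM (SD, n = 3) to 90.9 ± 16.4 CPM (SD, n = 3), a log2FC of 0.80 (SE 0.15, 95% interval 0.45 to 1.14, FDR 0.0173). The change was positive in 3 of 3 pairs, with log2 ratios of 0.69, 1.00 and 0.71 for culture numbers 1, 2 and 3, of which pairs 1 and 2 each shared a sequencing lane and pair 3 did not. In fits that left out a culture, all made without the block, the call rested on most of the cultures. It was lost without vehicle culture 2 (FDR 0.127), vehicle culture 3 (FDR 0.0937), TGFβ culture 1 (FDR 0.0700) or TGFβ culture 2 (FDR 0.115). It was kept without vehicle culture 1 (FDR 0.0152) or TGFβ culture 3 (FDR 0.00357). It was also lost when all 39499 genes with any read were tested (FDR 0.121), and with the replicate block the FDR was 1.31e-05.

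Other genes of the table lie within CDH1 and can hold some of its reads, since no source used here says how overlaps or strands were treated in counting. RP11-354M1.2, an antisense RNA that shares 347 exonic bases with CDH1, had 916 reads with vehicle and 1656 with TGFβ, which together equal 7.26% of the CDH1 reads. Its fitted log2FC was 0.76 (SE 0.19, FDR 0.0635), so it did not pass. FTLP14, a ferritin pseudogene in a CDH1 intron, shares 0 exonic bases with it and had 2.01% as many reads (log2FC 0.46, FDR 0.429).

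CDH2 (ENSG00000170558) lies at chr18:25530930-25757410 on the minus strand. Its reads numbered 16313, 14251 and 9286 in the vehicle cultures and 21512, 19675 and 13993 after TGFβ, or 185, 172 and 151 CPM against 222, 245 and 192 CPM. Here too the lowest TGFβ culture was above the highest vehicle culture, and culture 3 was lowest in both groups. The means were 169 ± 17.2 CPM (SD, n = 3) and 219 ± 26.4 CPM (SD, n = 3), and the fitted log2FC was 0.38 (SE 0.11, 95% interval 0.14 to 0.61, FDR 0.0954). The pairs had log2 ratios of 0.26, 0.51 and 0.35, positive in 3 of 3. With the replicate block the fitted log2FC was 0.37 (SE 0.06, FDR 0.000908), and 2 of 6 tested genes were then called higher, CDH1 and CDH2, against 8.08% of all genes. DESeq2 also called CDH2 (FDR 0.0332), limma-voom did not (FDR 0.107), and edgeR called it without TGFβ culture 3 (FDR 0.0334) or without a filter on low counts (FDR 0.0244). CDH1 and CDH2 were the 2 of 6 tested genes without overlap between the groups, both in the higher direction. Of all tested genes 18.6% did not overlap, 10.4% higher and 8.23% lower.

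In RefSeq the start site of CDH2 is preceded by the sequence below, shown because CDH2 was, of the genes called with the block, the one with a promoter window in the RefSeq table (GRCh38.p14). CDH2 has 2 windows, and the bases shown, from the more upstream one, lie at chr18:25757095-25757344 in GRCh37 and are given on the coding strand. They lie within CDH2 as the deposited table bounds it, since that gene model begins further upstream than the RefSeq start, and no UTR of CDH2 in GENCODE v44 covers them. Capitals mark the core SMAD motif (CAGAC, or GTCTG on the other strand), found 209 and 147 bases before the start. The other CDH2 window held 1 core SMAD motif, 0 SNAI or ZEB E-boxes (CAGGTG or CACCTG) and 1 E-box of any kind (CANNTG). The window shown held 0 SNAI or ZEB E-boxes and 0 E-boxes of any kind. Among all 35116 RefSeq windows of 250 bases before a start, 38.0% held a core SMAD motif, 17.5% held a SNAI or ZEB E-box and 61.8% held a CANNTG, so these matches are common and describe the letters of the window alone.
CDH2: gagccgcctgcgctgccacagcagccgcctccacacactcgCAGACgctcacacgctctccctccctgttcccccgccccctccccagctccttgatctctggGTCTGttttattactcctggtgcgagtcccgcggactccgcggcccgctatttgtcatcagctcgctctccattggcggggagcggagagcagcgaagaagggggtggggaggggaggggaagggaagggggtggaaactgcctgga

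EPCAM (ENSG00000119888), at chr2:47572297-47614740 on the plus strand, had between 9878 and 16048 reads per culture. Its level was 150.0, 163 and 160.4 CPM with vehicle and 166, 164 and 157 CPM with TGFβ, and the groups overlapped. The fitted log2FC was 0.04 (SE 0.07, FDR 0.878), with a 95% interval from -0.11 to 0.19, which corresponds to between 0.926-fold and 1.14-fold, and the sign turned when libraries were scaled by their totals alone. A change of EPCAM beyond this interval was not seen at 3 h, while the interval of CDH1 began at 1.37-fold.

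Ratios of 2 genes within a culture do not depend on how libraries are scaled, and they were formed from the deposited RPKM values. The ratio of CDH1 to CDH2 was 0.273, 0.234 and 0.235 with vehicle and 0.366, 0.328 and 0.301 with TGFβ. E-cadherin mRNA thus stayed below N-cadherin mRNA in every culture, and its level relative to N-cadherin did not overlap, the lowest TGFβ value lying above the highest vehicle value. The mean log2 difference of this ratio was 0.42, positive in 3 of 3 pairs (P = 0.1 by a two-sided exact permutation test, the minimum for 3 cultures against 3). The ratio of CDH1 to EPCAM was 0.136 ± 0.0307 (SD, n = 3) with vehicle and 0.229 ± 0.0362 (SD, n = 3) with TGFβ, again without overlap (P = 0.1, two-sided exact permutation test). The ratio of CDH2 to EPCAM was higher in 3 of 3 pairs, but the groups overlapped (P = 0.2, two-sided exact permutation test). The 3 exact P values come from the same cultures and are not adjusted, and none could reach 0.05.

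**Figure D2:**
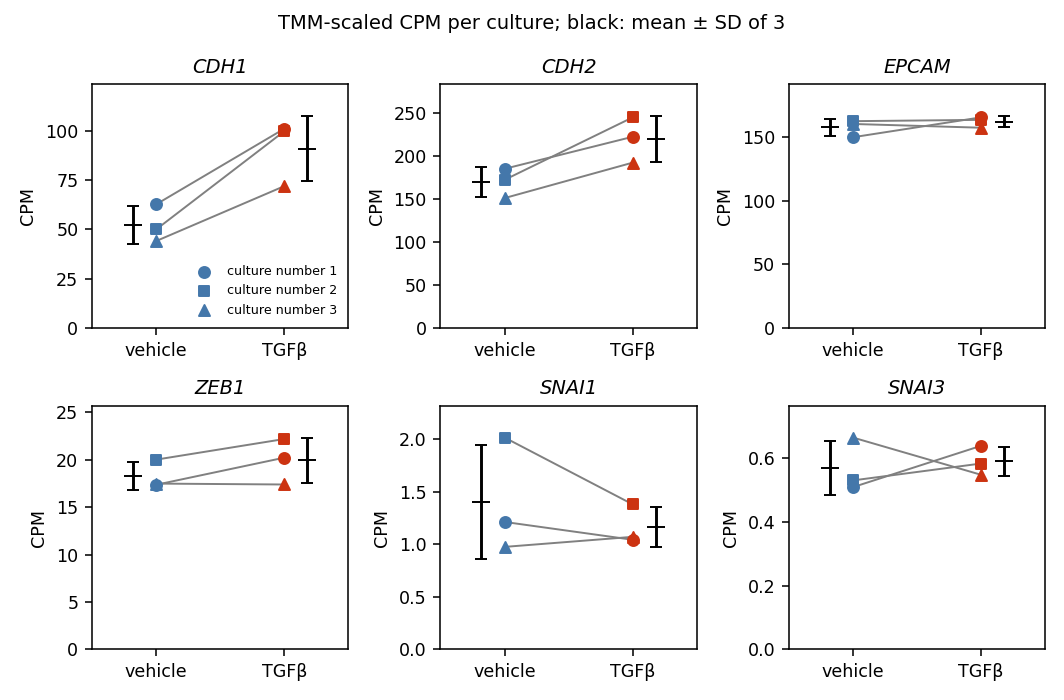
TMM-scaled CPM of the 6 tested genes in each culture (linear axes from 0); lines join cultures of the same number, symbols mark the numbers, and black bars are the mean ± SD of 3 cultures. For CDH1 and CDH2 the lowest TGFβ culture lies above the highest vehicle culture, and the other 4 genes overlapped.

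**Figure D3:**
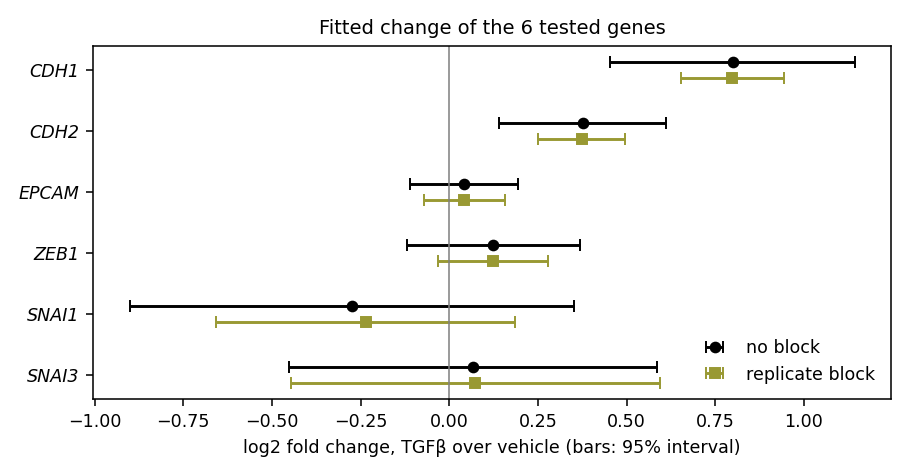
Fitted log2FC of TGFβ over vehicle with its 95% interval for the 6 tested genes, without (black circles) and with (olive squares) the replicate block. The interval of CDH1 runs from 0.45 to 1.14 without the block, and the intervals of EPCAM, ZEB1, SNAI1 and SNAI3 include 0 in both fits.

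SNAI1 encodes Snail, the repressor of CDH1 that is often named as an early target of TGFβ signaling. SNAI1 (ENSG00000124216), at chr20:48599536-48605423 on the plus strand, was covered by 107, 167 and 60 reads in the vehicle cultures and by 101, 111 and 78 after TGFβ. These are 1.21, 2.02 and 0.974 CPM against 1.04, 1.38 and 1.07 CPM, and all TGFβ cultures lay within the vehicle range. The fitted log2FC was -0.27 (SE 0.28, FDR 0.787), and its sign turned to 0.08 without vehicle culture 2, the highest of the 6. The 95% interval, from 0.535-fold to 1.28-fold, does not reach a doubling of SNAI1 mRNA at this time. The pairs had log2 ratios of -0.22, -0.55 and 0.14.

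SNAI3 (ENSG00000185669), a less studied member of the family, lies at chr16:88744090-88752901 on the minus strand. Reads of SNAI3 numbered 45, 44 and 41 in the vehicle cultures and 62, 47 and 40 after TGFβ, with a log2FC of 0.07 (SE 0.23, FDR 0.946) whose sign turned without vehicle culture 1 or TGFβ culture 1. SNAI3-AS1, an RNA on the other strand that shares 177 exonic bases with SNAI3, had more reads than SNAI3 itself, 643 with vehicle and 650 with TGFβ, so reads assigned to SNAI3 may belong to either strand. SNAI2 (ENSG00000019549), which encodes Slug, lies at chr8:49830249-49834299 on the minus strand. Its reads numbered 2, 4 and 8 in the vehicle cultures and 10, 3 and 6 after TGFβ. The scaled ratio of its 19 reads to 14 was 1.26 (exact 95% interval 0.600 to 2.72), so a difference was not detectable at this depth. Intervals on reads cover counting error only.

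Of the ZEB genes, ZEB1 had enough reads to be tested and ZEB2 did not. ZEB1 (ENSG00000148516), at chr10:31607424-31818742 on the plus strand, was covered by 1533, 1659 and 1077 reads in the vehicle cultures and by 1960, 1786 and 1268 after TGFβ, or 17.4, 20.02 and 17.5 CPM against 20.2, 22.2 and 17.4 CPM. The groups overlapped, and culture 2 was highest in both. The fitted log2FC was 0.12 (SE 0.11, 95% interval -0.12 to 0.37, FDR 0.743), and with the block it also did not pass (FDR 0.338). ZEB1-AS1, which starts near ZEB1 on the other strand and shares 396 exonic bases with it, had 1127 reads with vehicle and 1214 with TGFβ (log2FC 0.00, SE 0.14, FDR 0.997). ZEB2 (ENSG00000169554), at chr2:145141648-145282147 on the minus strand, was covered by 1, 2 and 8 reads in the vehicle cultures and by 0, 3 and 13 after TGFβ. Most ZEB2 reads came from culture 3 of either group, and the scaled ratio of 16 reads to 11 was 1.35 (exact 95% interval 0.590 to 3.22). Without TGFβ culture 3 the log2 ratio was -1.48, and without vehicle culture 3 it was 1.87.

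RefSeq lists several starts of ZEB1, and 2 of its 7 windows held a SNAI or ZEB E-box. The window with most of them is shown because it carries the motif that ZEB1 and the SNAI proteins bind; it lies on the plus strand, and its first 159 bases, up to the first base of an annotated UTR, are at chr10:31607895-31608053 in GRCh37 (RefSeq table, GRCh38.p14), also within the gene as the deposited table bounds it. Capitals mark the E-box, which begins 242 bases before the RefSeq start, and a second one 85 bases before the start lies beyond the printed stretch. The window held 0 core SMAD motifs, while some of the other ZEB1 windows held 1 or 2 each.
ZEB1: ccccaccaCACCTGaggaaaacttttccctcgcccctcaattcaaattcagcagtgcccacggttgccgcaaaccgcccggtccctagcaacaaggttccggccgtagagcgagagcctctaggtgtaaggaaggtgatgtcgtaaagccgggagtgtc
RefSeq windows were found for 4 of the 10 genes, CDH2, VIM, ZEB1 and ZEB2; CDH1, EPCAM, SNAI1, SNAI2, SNAI3 and TWIST1 had no entry. None of the 11 windows held the SMAD palindrome GTCTAGAC, which 0.182% of all windows held.

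TWIST1 and VIM were close to absent from these libraries. TWIST1 (ENSG00000122691), at chr7:19060614-19157295 on the minus strand, had 1 read in TGFβ culture 1 and 0 in the other 5 cultures. VIM (ENSG00000026025), at chr10:17270258-17279592 on the plus strand, was not read in any vehicle culture, and TGFβ cultures 1, 2 and 3 gave 0, 3 and 1 reads. A count of 0 allows up to 3 reads, or between 0.0340 and 0.0487 CPM, in a vehicle culture. The exact 95% interval of the scaled ratio of the 4 VIM reads to 0 began at 0.614, so a difference was not detectable, and no fold is given. VIM-AS1, which shares 656 exonic bases with VIM, had 2 reads with vehicle and 7 with TGFβ. Neither gene reached a level that could be tested at this depth.

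Other genes of the same processes were taken from 6 lists written from general knowledge, but with earlier results of these data known. Of their 84 tested entries, 7 were called higher and 2 lower (3.11% and 1.01% of all tested genes). Since the lists were not chosen blind to the data, these counts are a description alone. The counts per list below are to be read against the same shares, and those with the block against 8.08% higher and 3.75% lower. Among 18 other regulators of EMT, 12 had enough reads, and 1 was called higher and 1 lower, with a median log2FC of 0.13 beside -0.01 over all tested genes. FOXQ1, a forkhead factor that can repress CDH1, rose from 103 ± 16.7 CPM to 151 ± 17.1 CPM (SD, n = 3 each; log2FC 0.55, SE 0.12, FDR 0.0367). The FOXQ1 call was lost without vehicle culture 1 (FDR 0.101), vehicle culture 2 (FDR 0.128), TGFβ culture 1 (FDR 0.105) or TGFβ culture 3 (FDR 0.0761). SOX9, a factor of biliary and progenitor cells, fell from 240.1 ± 21.2 CPM to 172 ± 10.4 CPM (SD, n = 3 each; log2FC -0.48, SE 0.09, FDR 0.0108), a call that was lost without vehicle culture 3 (FDR 0.0631). HMGA2, a chromatin protein that supports SNAI1 transcription in other cells, had a log2FC of -0.01 (SE 0.07, FDR 0.968). The other EMT factors TWIST2, TCF4, FOXC2, GSC, PRRX1 and RUNX2 had at most 6 reads in any culture and were not tested. With the block 2 were called higher, FOXQ1 and ETS2.

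Besides CDH1 and CDH2, 21 cadherins with CDH symbols were listed, without the desmosomal ones. Of these, 6 had enough reads for testing, and none was called by edgeR, DESeq2 or limma-voom or reached an unadjusted P under 0.05. Their median log2FC was 0.01. CDH16, a cadherin of kidney epithelium, had between 317 and 699 reads per culture and a log2FC of -0.01 (SE 0.26, FDR 0.991). CDH3 (P-cadherin) had between 0 and 9 reads per culture, CDH11 (a cadherin of mesenchymal cells) between 0 and 2, and CDH5 (the endothelial cadherin) between 8 and 10.

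Of the catenins and junction plaque proteins that anchor cadherins, 21 genes were in the table, 16 were tested, and 2 were called higher and 0 lower (0 lower also at an unadjusted P under 0.05), with a median of 0.12. Both encode proteins of desmosomes. EVPL (envoplakin, a plakin that links keratin to desmosomes) rose from 38.0 ± 4.97 CPM to 74.8 ± 7.72 CPM (SD, n = 3 each; log2FC 0.98, SE 0.11, FDR 0.000914). DSC2, a desmosomal cadherin, rose from 65.7 ± 4.20 CPM to 101.7 ± 4.54 CPM (SD, n = 3 each; log2FC 0.63, SE 0.08, FDR 0.00141). CTNNB1, a catenin that binds the tail of E-cadherin, had a log2FC of 0.26 (SE 0.07, FDR 0.0978) and passed with the block (FDR 0.00476), with which 4 genes of the list were called higher. CTNND1 (p120 catenin) had -0.03 (SE 0.06, 95% interval -0.18 to 0.11, FDR 0.898).

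Of 18 epithelial regulators and markers, 12 were tested, and 2 were called higher and 1 lower, with a median of 0.09. ELF3, an epithelial ETS factor, rose from 16.7 ± 1.67 CPM to 26.3 ± 1.46 CPM (SD, n = 3 each; log2FC 0.65, SE 0.10, FDR 0.00415). CGN, the tight junction protein cingulin, rose from 4.16 ± 0.706 CPM to 7.50 ± 0.371 CPM (SD, n = 3 each; log2FC 0.86, SE 0.15, FDR 0.00989) and missed the threshold without vehicle culture 2 (FDR 0.0536). RBM47, an RNA-binding splicing regulator, fell from 3.72 ± 0.782 CPM to 1.72 ± 0.190 CPM (SD, n = 3 each; log2FC -1.11, SE 0.20, FDR 0.0114), a call that was lost without vehicle culture 2 (FDR 0.0598) or vehicle culture 3 (FDR 0.0665). With the block, 5 were called higher and 1 lower, and the keratin KRT8 (log2FC 0.37, FDR 0.0564 without the block and 0.000999 with it) was among the 5. The splicing regulator ESRP1 and the factors GRHL2 and OVOL1 had too few reads to be tested. The related genes ESRP2, GRHL1 and OVOL2 of the same list were tested, at means of 65.9, 17.2 and 31.8 CPM with vehicle. They were not called (log2FC 0.06, -0.10 and -0.07, FDR 0.824, 0.830 and 0.854).

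Of the mesenchymal effectors, 23 genes were in the table and 17 entries were tested, 2 of them for ITGB3, and 2 were called higher and 0 lower (0 lower also at an unadjusted P under 0.05), with a median of 0.31. LOX, which crosslinks collagen, rose from 7.66 ± 1.53 CPM to 13.4 ± 1.95 CPM (SD, n = 3 each; log2FC 0.80, SE 0.16, FDR 0.0216), and CTGF, a matricellular protein, rose from 207 ± 29.5 CPM to 308 ± 46.2 CPM (SD, n = 3 each; log2FC 0.57, SE 0.13, FDR 0.0327). LOX lost its call without vehicle culture 1 (FDR 0.0802), vehicle culture 3 (FDR 0.114) or TGFβ culture 2 (FDR 0.103), and CTGF lost it without vehicle culture 1 (FDR 0.116), vehicle culture 3 (FDR 0.164), TGFβ culture 1 (FDR 0.0506) or TGFβ culture 2 (FDR 0.125) and with library totals alone (FDR 0.0597). FN1 (fibronectin), already at 11068 ± 1168 CPM with vehicle (SD, n = 3), had a log2FC of 0.06 (SE 0.13, FDR 0.907) that turned to -0.03 without TGFβ culture 1 and to -0.001 without vehicle culture 3. With the block 5 were called higher: LOX, CTGF, TPM1, COL1A1 and MMP9. Without it TPM1 (log2FC 0.44, FDR 0.0816), COL1A1 (log2FC 0.57, FDR 0.193) and MMP9 (log2FC 1.55, FDR 0.0770) missed the threshold. Their FDR with the block was 0.000430, 0.00806 and 0.0388, and MMP9 had between 4 and 30 reads per culture. Of 7 markers of fibroblasts and stromal cells, 2 had enough reads to be tested, and 0 of the 2 were called. With the block 1 of the 2 was called higher, PDGFRB (log2FC 1.22, FDR 0.0582 without and 7.25e-06 with the block). Summed, the 7 markers had between 5.39 and 9.56 CPM with vehicle and between 11.5 and 24.3 CPM with TGFβ, most of it PDGFRB. LUM, THY1 and COL14A1 had fewer than 10 reads each over all 6 cultures, and the part of such cells in the result was not tested. Of 6 blood and endothelial markers, 3 had enough reads to be tested, and 0 of the 3 were called by edgeR. At an unadjusted P under 0.05, 1 of the 3 was lower, LYZ. It held most of the summed level of the 6 markers, 1136 to 1459 CPM with vehicle and 987 to 1087 CPM with TGFβ. With the block LYZ was called lower (FDR 0.0157), and PTPRC and KDR had fewer than 10 reads over all 6 cultures.

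Of 21 corepressors and stability factors of the SNAI and ZEB proteins, among them the corepressor CTBP1, the deacetylase HDAC1, the demethylase KDM1A and the kinase GSK3B, all 21 were tested. By edgeR 0 were called, with a median of 0.12; 7 had an unadjusted P under 0.05, all higher (8.69% of all tested genes). DESeq2 called 2 higher (1009 over all genes), limma-voom called 0 (679 higher over all genes), and the block called 7 higher (8.08% of all tested genes) and 0 lower. PAK1, a kinase that phosphorylates SNAI1, was nearest to the threshold (log2FC 0.81, SE 0.20, FDR 0.0519).

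**Figure D4:**
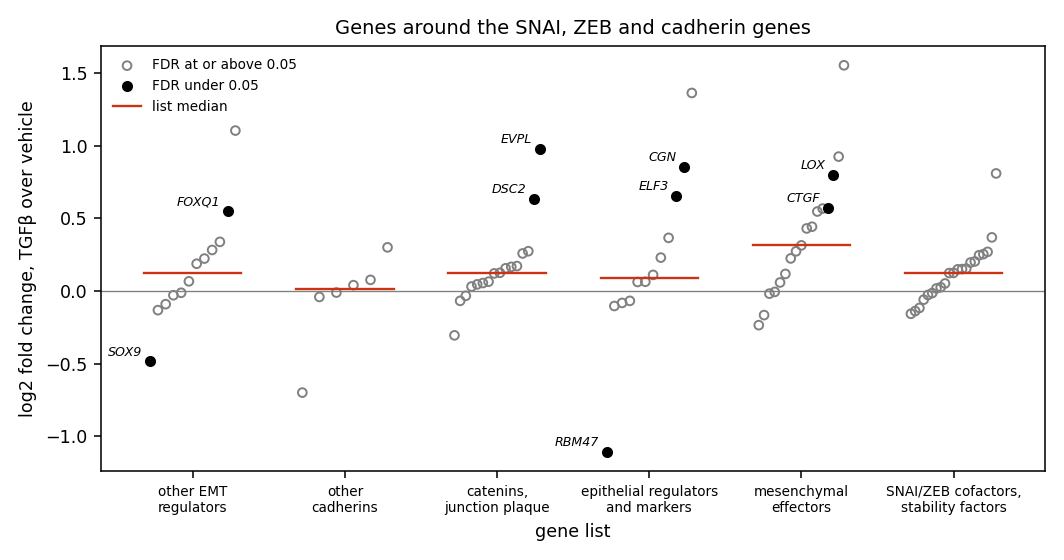
Fitted log2FC of TGFβ over vehicle for each tested gene of the 6 lists; filled points passed an FDR of 0.05 and are named, open points did not, and red lines are list medians. Of the named genes EVPL had the highest value, 0.98, and RBM47 the lowest, -1.11, and medians ran from 0.01 for the other cadherins to 0.31 for the mesenchymal effectors.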

How the data were processed

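RNA of 6 HepG2 cultures was sequenced by the authors, 3 with vehicle and 3 with TGFβ, grouped and numbered by the sample labels. The authors aligned reads to hg19 and deposited 1 table of raw counts per gene (MAPRseq; the submitters' processing notes also name TopHat2 2.0.6 and HTSeq) with RPKM beside each count. No source used here gives the strand setting or the annotation release. Counts were tested with edgeR 4.0.16 (limma 3.58.1, R 4.3.3): TMM normalization, filterByExpr, quasi-likelihood F test (robust, no block), Benjamini-Hochberg adjustment over 22747 genes. Standard errors follow from the F statistic, and log2 fold changes are fitted. RPKM was used only for levels between genes. The steps were tested on simulated counts, drawn with no effect shared by cultures of the same number. Such counts cannot show how the fits behave on paired cultures.

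After group means were subtracted, cultures with the same number correlated across genes at 0.366, 0.227 and 0.316 and those with different numbers at 0.0101 or less. The numbers were therefore treated as pairs in the ratios per pair and in the fit with the replicate block. The main fit, the other alternatives and the fits that left out a culture did not use the pairs. Replicates differed beyond counting noise (chi-square per gene of at least 21.4). The members and lists were chosen with earlier results of these data known. Named genes were the 10 members, genes that overlap them, the check genes, up to 4 called genes per list by smallest P, FN1, CTNNB1 and CTNND1, and the 3 genes most correlated with CDH1. Added after their values were seen were ETS2, HMGA2, KRT8, TPM1, COL1A1, MMP9, PAK1, PDGFRB, CDH16 and genes named for few reads. The same holds for LYZ, ESRP2, GRHL1 and OVOL2. Outside the rule, CTBP1, HDAC1, KDM1A, GSK3B, ALB, AFP and HNF4A were named as examples of their lists. Some genes that this rule or the lists held are not reported here and were left out of list counts. Gene strands and exons came from GENCODE v44 lifted to GRCh37. Alternatives were DESeq2 1.42.0 and its size factors, library totals, limma-voom, no filter, a minimum of 10 counts per library, the replicate block and leaving out each culture.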

Additional observations from a re-analysis of the deposited data

How the results depend on the processing

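The count of genes called higher was 1837 with the replicate block, and that of genes called lower was 853 with the block, 366 without a filter and 406 with DESeq2; leaving out single cultures gave 394 to 778 higher and 91 to 220 lower. Of the members, 2 were called higher with DESeq2 and with the block, and 0 to 2 when a culture was left out, while 0 were lower in every fit. CDH1 was higher in all 13 alternative fits, with log2 fold changes of 0.77 without a filter, where its FDR missed the threshold, and 0.69 to 0.94 with a culture left out. CDH2 was also higher in all 13 and passed without a filter (0.35), with DESeq2 (0.37) and with the replicate block (0.37), and it ranged from 0.28 to 0.46 with a culture left out. EPCAM turned to -0.0011 with library totals and ranged from -0.0029 to 0.059 with a culture left out, SNAI1 from -0.47 to 0.079, SNAI3 from -0.017 to 0.19, ZEB1 from 0.03 to 0.21 and FN1 from -0.034 to 0.17. The log2 ratio of reads ranged from -0.13 to 1.11 for SNAI2 and from -1.48 to 1.87 for ZEB2. Of the listed genes, 13 were higher without a filter, 14 with DESeq2 and 23 with the block, and 5 to 7 were higher and 0 to 2 lower with a culture left out. The cause of these shifts was not tested. The replicate block changed no call of a member other than CDH2. SNAI2, ZEB2, TWIST1 and VIM had 0 to 13 reads per culture, in libraries of at least 60815385 reads on genes, and could not carry a test.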

Other observations

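Over the 6 cultures, the log2 CPM of PRKCZ (Pearson's r = 0.999) and RHBDF1 (r = 0.998) was among those that followed CDH1 most closely. PRKCZ encodes an atypical protein kinase C of cell polarity complexes and RHBDF1 an inactive rhomboid protein. These values lie at the top of all tested genes, over 6 points that share libraries and treatment, and are given as a description. In the edgeR fit PRKCZ had a log2FC (log2 fold change, with its standard error, SE) of 0.55 (SE 0.12, FDR 0.0285) and RHBDF1 of 0.65 (SE 0.14, FDR 0.0337).

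AC015933.2, which overlaps CDH2 from the other strand and shares 307 exonic bases with it, was covered by 2080 reads in the vehicle group and 2620 after TGFβ, or 4.95% of the CDH2 reads, and had a log2FC of 0.24 (SE 0.10, FDR 0.344). Within ZEB2, AC009951.1 and AC009951.2 were covered by 15 and 10 reads in the vehicle group and by 13 and 30 after TGFβ, of the same order as ZEB2 itself. AC009951.1 lies on the strand of ZEB2 and shares all of its 2966 exonic bases with it, so strand cannot separate their reads. AC009951.2 shares 0 exonic bases with ZEB2. ZEB2-AS1, on the other strand, shares 1299 and had 1 read with vehicle and 5 with TGFβ.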
